A study of Mus musculus with 23 samples.

Results

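The 36 genes described here carry pattern recognition signals from Toll-like receptors to the transcription factors NF-kappaB and IRF (interferon regulatory factor). They were chosen by symbol from the 3826 genes of a targeted panel. The choice took every numbered Toll-like receptor (TLR), TRAF and IRF gene, the IRAK and IKK genes, the adaptors Myd88 and Ticam1, the NF-kappaB subunits and the IkappaB genes, with Irf7 left out by the rule. No symbol of the NLR family on the panel began in the way the rule asked for, so 0 of the 36 are NLR genes.

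Toll-like receptors bind microbial lipids, proteins and nucleic acids, some at the cell surface and others inside endosomes. The adaptors Myd88 and Ticam1 hand the signal to IRAK kinases and TRAF ubiquitin ligases, and the IKK complex then marks IkappaB for destruction, which frees NF-kappaB to enter the nucleus, while IRFs drive interferon and interferon-responsive genes. In tumours these genes are expressed by infiltrating myeloid and lymphoid cells and, for many members, by the carcinoma cells as well.

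RNA came from 23 mouse mammary carcinomas, 11 of animals given control vehicle and 12 of animals given abemaciclib, an inhibitor of the cell cycle kinases CDK4 and CDK6, at 90 mg/kg daily by gavage. All animals had been given doxycyclin from the age of 6 weeks to induce tumours, and tissue was frozen after dose 12. Strain, transgene and the animal behind each tumour are not named in the labels, so p-values measure the spread between these 23 samples. Each gene was read through 1 short amplicon, and levels are given as CPM, counts brought to a common scaled library total. Amplicons differ in how well they amplify, so levels are compared between tumours and never between genes. Libraries held 2756919 to 4990391 counts.

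Promoter sequences were found in the RefSeq table (GRCm38.p6) for 30 of the 36 genes, at 41 start sites. Those of Tlr2, Irf8 and Irf9 are shown because these genes are among the 4 with the smallest p-values below; Tlr7, the other of the 4, is not in the table. Each line gives the 250 bases before the start site, 5′ to 3′ on the gene's strand, with motif matches in capitals. For Tlr2 (chr3:83841609-83841858, minus strand) and for the second start site of Irf9 (chr14:55604329-55604578, plus strand) the capitals mark the kappaB motif, the site type that NF-kappaB binds. For the first start site of Irf8 (chr8:120736108-120736357, plus strand) they mark kappaB matches and 2 matches to GAS, the site type that STAT dimers bind.
Tlr2: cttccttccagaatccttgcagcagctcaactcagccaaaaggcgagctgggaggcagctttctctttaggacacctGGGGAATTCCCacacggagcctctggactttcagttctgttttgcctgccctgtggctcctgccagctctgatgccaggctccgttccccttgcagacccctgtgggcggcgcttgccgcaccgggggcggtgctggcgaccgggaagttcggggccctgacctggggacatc
Irf8: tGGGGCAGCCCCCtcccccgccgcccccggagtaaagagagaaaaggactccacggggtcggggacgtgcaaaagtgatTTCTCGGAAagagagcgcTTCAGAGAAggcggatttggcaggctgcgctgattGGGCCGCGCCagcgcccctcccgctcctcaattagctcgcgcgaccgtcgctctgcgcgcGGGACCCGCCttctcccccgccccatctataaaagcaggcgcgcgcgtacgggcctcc
Irf9: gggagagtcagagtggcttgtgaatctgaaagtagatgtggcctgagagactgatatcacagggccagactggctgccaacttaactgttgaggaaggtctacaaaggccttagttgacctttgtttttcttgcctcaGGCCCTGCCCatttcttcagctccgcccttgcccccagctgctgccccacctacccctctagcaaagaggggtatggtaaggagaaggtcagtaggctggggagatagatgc

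The letters searched, on both strands, were GGG and CC with any 5 bases between them for kappaB, TTC and GAA with any 3 between them for GAS, and GAAA and GAAA with any 2 between them for the interferon-stimulated response element (ISRE). In Tlr2, 2 overlapping kappaB matches lay 173 to 163 bases before the start. In Irf8 the GAS matches lay 171 to 163 and 153 to 145 bases before it, and kappaB matches lay 249 to 238, 118 to 109 and 58 to 49 bases before it. In Irf9 the match lay 112 to 103 bases before the second start site. The second start site of Irf8 and the first of Irf9, which are not shown, held no match to kappaB, GAS or ISRE. The kappaB letters are loose and frequent: 27 of the 41 member promoters (65.9%) held a match, against 61.5% of 3808 promoters of panel genes and 45.8% of all 32851 promoters in the table. GAS matches stood in 6 of 41 (14.6%; Chuk, Irf1, Irf8, Myd88, Nfkb2 and Tlr1), against 5.49% of panel promoters and 7.02% of all. ISRE matches stood in 2 of 41 (4.88%; Myd88 and Tlr6), against 2.84% and 2.98%. A match describes the letters only, and binding was not measured.

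The comparison of abemaciclib with control asked whether these transcripts differ when the 2 kinases are inhibited in tumours that have already grown. Of the 36 genes, 34 had enough counts to be tested. By edgeR's quasi-likelihood test with Benjamini-Hochberg adjustment over all 2925 genes tested, none of the 34 passed 0.05, nor did any other gene. At an unadjusted p under 0.05, 4 of the 34 (11.8%) were higher with abemaciclib, beside 7.59% of all genes, and 0 were lower, beside 5.81%. The 4 were the receptors Tlr2 and Tlr7 and the transcription factors Irf8 and Irf9. DESeq2's Wald test called 47 genes of the panel higher (1.61%) and 13 lower (0.444%), with none of the 34 among them. Limma-voom with quality weights called 57 higher (1.95%) and 70 lower (2.39%), and Tlr2 was the 1 member called (log2 fold change 0.46, adjusted p = 0.0401).

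Estimates for receptors and IRFs were mostly positive and those for the relay between them were split, a grouping made after the values were seen and not tested. Of the 12 tested TLRs and IRFs, 10 had positive log2 fold changes and the median was 0.29, while the other 22 members split into 11 positive and 11 negative with a median of 0.0064. Over all 34 members, 21 were positive and 13 negative with a median of 0.077, against 1496 positive and 1429 negative genes and a median of 0.0055 over the panel. The members' median was 0.16 without control tumour 6 and 0.039 without abemaciclib tumour 9. The scaling mattered as well. With library totals alone the median of all genes moved by -0.12, to 842 positive and 2083 negative genes, and the members' median turned to -0.039, with 16 positive and 18 negative; TLRs and IRFs then still had 10 positive of 12 and a median of 0.15. With that scaling Tlr7 was the 1 member higher at an unadjusted p under 0.05 (3.38% of all genes), and Chuk, Ticam1 and Traf1 were lower (14.4% of all genes).

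**Figure D1:**
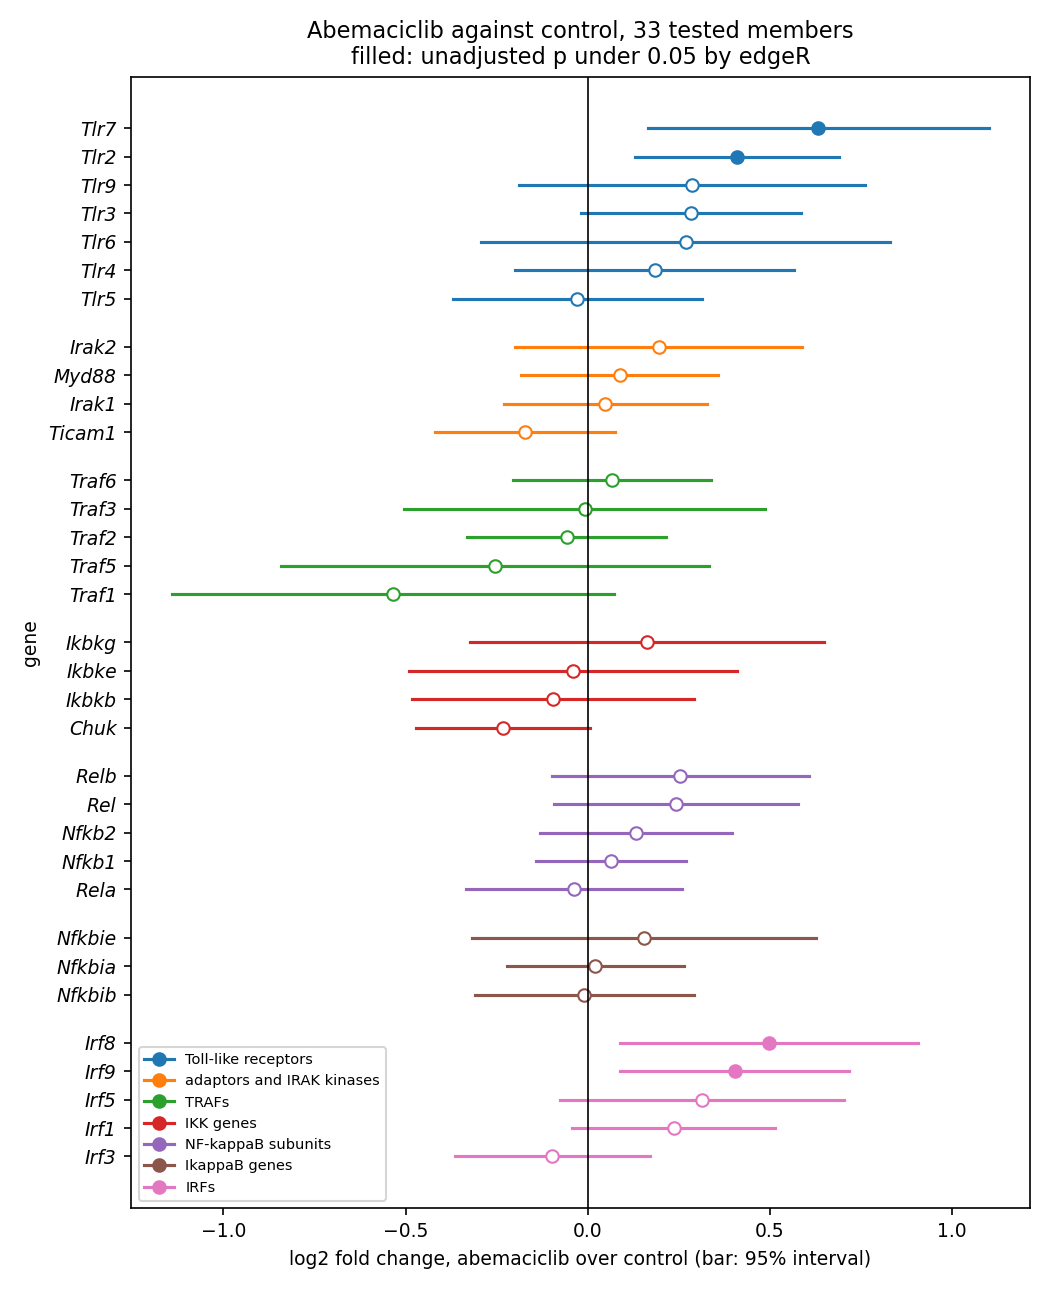
Log2 fold change of abemaciclib over control for 33 of the tested genes (horizontal axis), grouped and coloured by role, with bars for the 95% interval. Filled points, at Tlr7, Tlr2, Irf8 and Irf9, mark an unadjusted p under 0.05, and the TRAF and IKK genes sit mostly on the negative side with intervals that cross 0.

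Tlr7, an endosomal receptor for single-stranded RNA (chromosome X, 167304929 to 167330558), had the largest positive estimate of the 34. In control tumours its lowest, median and highest levels were 11.4, 17.8 and 29.5 CPM, and in abemaciclib tumours 13.5, 32.0 and 47.5 CPM. The abemaciclib tumours fell into 2 sets, with tumours 2, 3, 9 and 10 at 13.5 to 16.5 CPM, within the control range, and the other 8 at 25.3 to 47.5 CPM, 7 of them above every control tumour. Mean levels were 18.9 ± 6.52 CPM (SD, n = 11) under vehicle and 29.4 ± 11.6 CPM (SD, n = 12) under abemaciclib, and the log2 fold change was 0.63 (95% interval 0.17 to 1.10, SE 0.228, edgeR adjusted p = 0.195). Without abemaciclib tumours 3 and 10, in which Cxcl9 and Cxcl10 carried most of their group difference, the log2 fold change was 0.76 and the adjusted p by edgeR was 0.0477, while 1.09% of all genes were then called higher and 2.09% lower. Both tumours are in the low set for Tlr7, and leaving them out was a choice made with values of these data known. Over the other settings, each left-out tumour included, edgeR did not call Tlr7.

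Tlr2, a surface receptor for bacterial lipoproteins (chromosome 3, 83836272 to 83841767), had the smallest p of the 34. It ranged from 43.2 CPM through a median of 52.8 to 76.3 CPM in control and from 45.8 through 80.9 to 96.2 CPM in abemaciclib tumours. It was above the control median in 11 of the 12 treated tumours and above every control tumour in 8, with tumours 2 and 3 the lowest. The log2 fold change was 0.41 (95% interval 0.13 to 0.69, SE 0.136, edgeR adjusted p = 0.155, DESeq2 adjusted p = 0.0905).

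Tlr3, the endosomal receptor for double-stranded RNA, ranged from 122 through 180.5 to 244 CPM in control and from 136 through 216 to 393 CPM in abemaciclib tumours. The groups overlapped, with 4 abemaciclib tumours above all controls and tumour 5 alone at the top. Its log2 fold change of 0.28 (SE 0.146 and edgeR adjusted p = 0.407) was 0.18 without that tumour. Among the remaining receptors the log2 fold change was 0.29 for Tlr9, which senses unmethylated CpG DNA, 0.27 for Tlr6, a partner of Tlr2, 0.18 for Tlr4, the endotoxin receptor, and -0.03 for Tlr5, the flagellin receptor. Their unadjusted p-values ran from 0.226 for Tlr9 to 0.868 for Tlr5. Tlr1, another partner of Tlr2, was set aside as too low to test, with 0 to 17 counts under vehicle and 0 to 12 under abemaciclib.

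Irf9, which binds DNA with STAT proteins downstream of interferon receptors (chromosome 14, 55603571 to 55610030), ranged from 221 through 253 to 321 CPM in control. In abemaciclib tumours it ran more widely, from 160.2 through 341 to 499 CPM. Tumours 9 and 2 lay below every control tumour, 6 lay above every control tumour, and 10 of 12 exceeded the control median. The log2 fold change was 0.40 (95% interval 0.09 to 0.72, SE 0.153, edgeR adjusted p = 0.213). Irf9 overlaps the coding gene Rnf31 by 123 bases on the same strand, and where the amplicon lies in either is not known here. The span of Irf8 lies wholly within that of Gm20388 and the span of Myd88 wholly within that of Slc22a14, in each case on the same strand. Where an amplicon lies in a stretch that the transcripts of both genes share, their reads cannot be told apart.

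Irf8, a factor of macrophage, dendritic cell and B cell development (chromosome 8, 120736358 to 120756694), ranged from 46.6 through 86.1 to 135 CPM in control and from 61.9 through 113 to 245 CPM in abemaciclib tumours. Only 3 abemaciclib tumours lay above every control tumour, with tumour 12 the highest. The log2 fold change was 0.50 (95% interval 0.09 to 0.91, SE 0.199, edgeR adjusted p = 0.238). Without abemaciclib tumour 12 it was 0.36, with an unadjusted p of 0.0536 by edgeR.

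Irf1, an interferon-gamma responsive factor, ranged from 85.7 through 106 to 134 CPM in control and from 71.6 through 119 to 194 CPM in abemaciclib tumours. Tumour 10 was the highest and tumour 2 the lowest of the abemaciclib group, and the log2 fold change was 0.24 (SE 0.135 and edgeR adjusted p = 0.463). Irf5, which acts downstream of TLRs in myeloid cells, had a log2 fold change of 0.31 (SE 0.190). Irf3, which the kinase Tbk1 activates, had one of -0.10 (SE 0.130). Irf4, a lymphocyte factor, was set aside with 0 to 9 counts in each group.

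**Figure D2:**
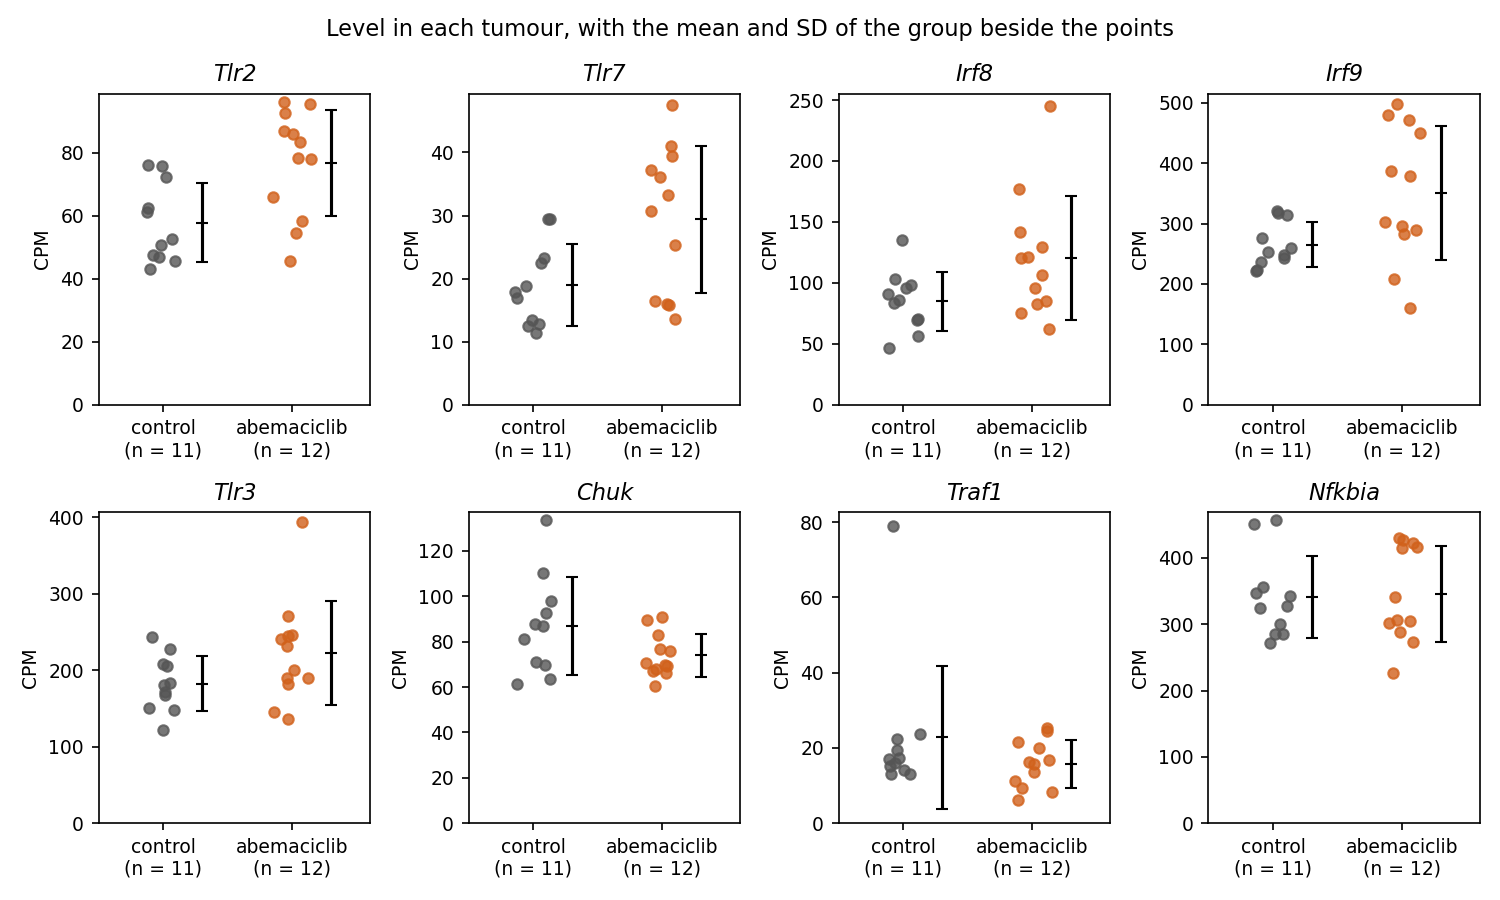
CPM of 8 genes in each tumour (1 point a tumour, control n = 11 and abemaciclib n = 12), with the mean and SD of the group beside the points and axes from 0. Tlr7 splits into 2 sets in the abemaciclib group, control tumour 8 stands alone for Traf1, and the groups overlap in every panel.

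Among the adaptors and IRAK kinases, 3 of 4 log2 fold changes were positive and none passed an unadjusted p of 0.05; with library totals alone 1 of 4 was positive. Ticam1, the adaptor of Tlr3 and Tlr4 also called TRIF, ranged from 25.9 through 33.1 to 45.1 CPM in control and from 23.6 through 29.5 to 41.6 CPM in abemaciclib tumours. It lay below the control median in 10 of the 12 treated tumours (log2 fold change -0.17, SE 0.120 and edgeR adjusted p = 0.565). Irak2 ranged from 76.4 through 129 to 181 CPM in control and from 69.5 through 139.6 to 210.0 CPM in abemaciclib tumours. It exceeded the control median in 6 of the 12 treated tumours, and its log2 fold change was 0.20 (SE 0.191). Myd88, the adaptor shared by most TLRs, ranged from 111 through 189 to 221 CPM in control and from 147 through 175 to 379.8 CPM in abemaciclib tumours, where tumour 9 stood alone and the next was at 211 CPM. Its log2 fold change was 0.09 (SE 0.132), and that of Irak1 was 0.05.

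The TRAF genes, ubiquitin ligases and scaffolds of TLR and TNF receptor signalling, had 1 positive and 4 negative log2 fold changes (0 and 5 with library totals alone, 2 and 3 with DESeq2 size factors), and none passed an unadjusted p of 0.05. Traf1 had the largest negative estimate of all 34 members and rested on 1 tumour. It was at 79.0 CPM in control tumour 8 and at 13.0 to 23.7 CPM in the other 10 control tumours, with 6.05 through a median of 16.0 to 25.3 CPM in abemaciclib tumours. Its log2 fold change of -0.53 (SE 0.295 and edgeR adjusted p = 0.441) was -0.13 without control tumour 8. Traf5, a low-count member with 2 to 20 counts in every tumour, had a log2 fold change of -0.25 (SE 0.285) and ranged from 1.84 through 3.26 to 5.56 CPM in control and from 0.688 through 2.69 to 5.81 CPM in abemaciclib tumours. Traf6, the ligase downstream of Myd88 and IRAK kinases, ranged from 50.7 through 69.1 to 118 CPM in control and from 59.7 through 77.9 to 97.5 CPM in abemaciclib tumours (log2 fold change 0.07, SE 0.132). Traf2 and Traf3 had log2 fold changes of -0.06 and -0.01.

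The IKK genes also had 1 positive and 4 negative log2 fold changes. Chuk, the catalytic subunit IKK-alpha, ranged from 61.2 through 86.7 to 133 CPM in control and from 60.5 through 70.3 to 90.9 CPM in abemaciclib tumours. It lay below the control median in 10 of the 12 treated tumours, and its SD over tumours was 21.6 CPM under vehicle and 9.49 CPM under abemaciclib. The log2 fold change was -0.23 (95% interval -0.47 to 0.01, SE 0.116, edgeR adjusted p = 0.395), and -0.15 without control tumour 7, the highest for Chuk. Ikbkg, the regulatory subunit NEMO, had 6 to 23 counts in each tumour, with 1.81 through 2.34 to 5.64 CPM in control and 1.15 through 3.64 to 4.53 CPM in abemaciclib tumours. It was above the control median in 11 of the 12 treated tumours, none of them above every control (log2 fold change 0.16, SE 0.236). Ikbkg overlaps G6pdx on the opposite strand, a gene also on the panel. Ikbkb, the other catalytic subunit, and the IKK-related kinase Ikbke had log2 fold changes of -0.10 and -0.04.

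Of the 5 NF-kappaB subunits, 4 had positive log2 fold changes (3 with library totals alone) and none passed an unadjusted p of 0.05. Rel, the c-Rel subunit of lymphoid and myeloid cells, ranged from 9.74 through 14.8 to 24.9 CPM in control and from 11.1 through 17.6 to 24.1 CPM in abemaciclib tumours, with 11 of 12 above the control median (log2 fold change 0.24, SE 0.163 and edgeR adjusted p = 0.558). Relb, the partner of Nfkb2 in the non-canonical pathway, ranged from 43.4 through 62.4 to 81.0 CPM in control and from 38.0 through 64.4 to 152 CPM in abemaciclib tumours, with tumour 9 the highest. Its log2 fold change of 0.25 (SE 0.171) was 0.11 without that tumour. Nfkb2, the p100 precursor, ranged from 118 through 139 to 218 CPM in control and from 118 through 149.5 to 257 CPM in abemaciclib tumours (log2 fold change 0.13, SE 0.128), and without tumour 9, also its highest, the log2 fold change was 0.061. Nfkb1, the p105 precursor, and Rela, the p65 subunit, had log2 fold changes of 0.06 and -0.04.

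The IkappaB genes, inhibitors that hold NF-kappaB in the cytoplasm and are themselves NF-kappaB targets in many cells, lay close to 0. Nfkbia ranged from 272 through 327 to 458 CPM in control and from 226 through 323 to 430.1 CPM in abemaciclib tumours, with 6 of 12 above the control median (log2 fold change 0.02, SE 0.118). Nfkbib ranged from 79.8 through 126 to 222 CPM and from 95.3 through 132 to 185 CPM (log2 fold change -0.01, SE 0.147). Nfkbie ranged from 17.9 through 21.8 to 49.7 CPM in control and from 9.84 through 27.5 to 67.3 CPM in abemaciclib tumours. Control tumour 8 and abemaciclib tumour 9 were the highest for Nfkbie, and its log2 fold change of 0.15 (SE 0.229) was -0.01 without abemaciclib tumour 9.

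For 20 of the 34 members the 95% interval lay within 1.5-fold in either direction. These included Nfkb1 (0.906-fold to 1.21-fold), Rela (0.793-fold to 1.20-fold), Nfkbia (0.858-fold to 1.20-fold), Irak1 (0.853-fold to 1.25-fold), Myd88 (0.881-fold to 1.28-fold) and Irf3 (0.776-fold to 1.13-fold). The interval reached 2-fold for Tlr7 on the higher side and Traf1 on the lower side, and for no other member.

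**Figure D3:**
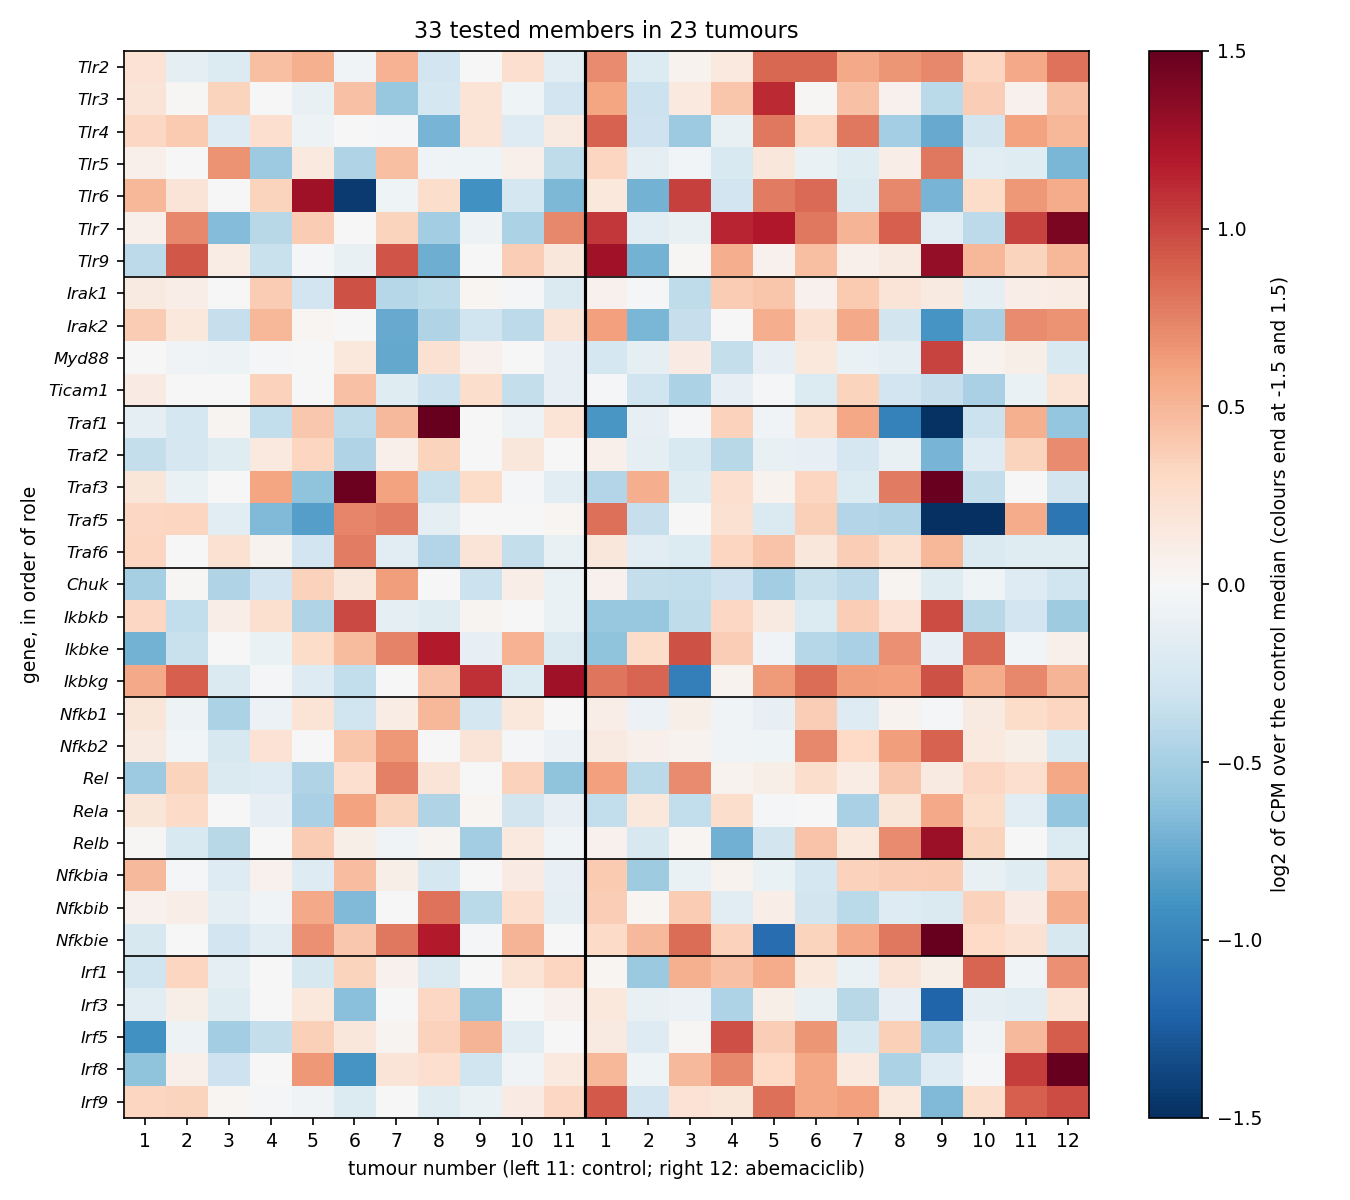
Log2 of each tumour's CPM over the control median for 33 of the tested genes (rows in order of role, horizontal lines between roles; columns are tumours, control left of the vertical line); values beyond the ends of the colour scale take its end colours. Abemaciclib tumour 9 and control tumours 6 and 8 carry many of the deepest colours in both directions.

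Single tumours stood at the ends of their group for many members. Abemaciclib tumour 9, the shallowest library, was the highest or the lowest of its group for 19 of 34 members (55.9%, against 46.2% of all genes). Control tumour 6 was so for 17 (50%, against 33.2%) and control tumour 8 for 14 (41.2%, against 39.0%). Without these 3 tumours, a choice made after seeing the data, 6 members were higher (7.87% of all genes) and 0 lower (5.45% of all genes) at an unadjusted p under 0.05 by edgeR, none passed the adjusted threshold, and the members' median log2 fold change was 0.081.

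Macrophage markers, like Tlr2, Tlr7 and Irf8, had positive estimates. Of 7 such markers on the panel 6 were tested and all 6 had positive log2 fold changes, with a median of 0.50; Msr1, Fcgr3, C1qa, Csf1r and Mertk had an unadjusted p under 0.05 by edgeR, and none passed the adjusted threshold. Without abemaciclib tumours 3 and 10 edgeR called 2 of the 6. DESeq2 and limma-voom each called Msr1 (adjusted p = 0.00512 and 0.0187), Fcgr3 (0.0220 and 0.0401) and C1qa (0.0296 and 0.0130), and likewise the dendritic cell markers Ly75 (0.00512 and 0.0137) and Itgax (0.0215 and 0.0334). The summed level of the macrophage markers was 656 to 1074 CPM in control and 975 to 1830 CPM in abemaciclib tumours. All 3 tested dendritic cell markers (Itgax, Ly75 and Cd83; 6 on the panel) were higher at an unadjusted p under 0.05, with a median of 0.65 and sums of 51.8 to 104 and 70.4 to 174 CPM. So were Tcf4, the 1 tested of 2 plasmacytoid dendritic cell markers (0.34), Cd22, the 1 tested of 7 B cell markers (0.58), and S100a8, 1 of 3 tested neutrophil markers (0.49). Of all genes 7.59% were higher at that threshold. With library totals alone Tcf4, Cd22 and S100a8 were not under 0.05, nor was Cd22 with upper-quartile factors or the replicate block. T cell markers had 4 of 5 positive and none under 0.05 (median 0.31, and 0.016 without abemaciclib tumours 3 and 10; 11 on the panel, sums of 18.1 to 75.8 and 22.7 to 106 CPM). Luminal epithelial markers, those of the labelled tissue, summed to 6279 to 8972 CPM in control and 5571 to 12065 CPM in abemaciclib tumours, with 4 positive and 7 negative of 11 tested and a median of -0.03. Endothelial (7) and fibroblast (8) markers had medians of 0.10 (-0.03 with library totals alone) and 0.38 (0.14 by limma-voom) with none under 0.05. No marker on the panel was at 0 in all 23 tumours. In bulk tissue more cells of a type and more RNA per cell cannot be told apart, and the part of these cells in the members' differences was not tested.

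Within the abemaciclib group, Tlr7 was correlated with the macrophage score, the mean log2 CPM of the 6 tested markers. Pearson's r was 0.83 (permutation test, two-sided, p adjusted over 136 coefficients = 0.0358) and Spearman's rho 0.76 (adjusted p = 0.085) over 12 tumours, and r was 0.77 without the 2 tumours farthest from the median score. The relation rested on both sets of Tlr7 levels: the 4 low tumours had scores of 6.03 to 6.37 and the other 8 had 6.28 to 6.99, and among those 8 r was 0.60 and rho 0.48 (exact permutation tests, two-sided, p = 0.109 and 0.243). Irf5 (r = 0.74, adjusted p = 0.0674) and Ticam1 (r = 0.72, adjusted p = 0.0696) came next among members with the same sign in both groups, and Irf8 was at 0.74 (adjusted p = 0.0674). Members with a negative r in both groups included Ikbke (-0.53), Nfkbie (-0.48) and Tlr5 (-0.41), each with an adjusted p over 0.05. In the 11 control tumours no member passed, and r was 0.49 for Tlr7 and Irf5, 0.40 for Ticam1 and -0.06 for Irf8. Tlr2 had an r of 0.55 in abemaciclib tumours (permutation test, adjusted p = 0.295) and of -0.35 in control tumours (adjusted p = 0.599). Whether the groups differ in r was not tested.

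**Figure D4:**
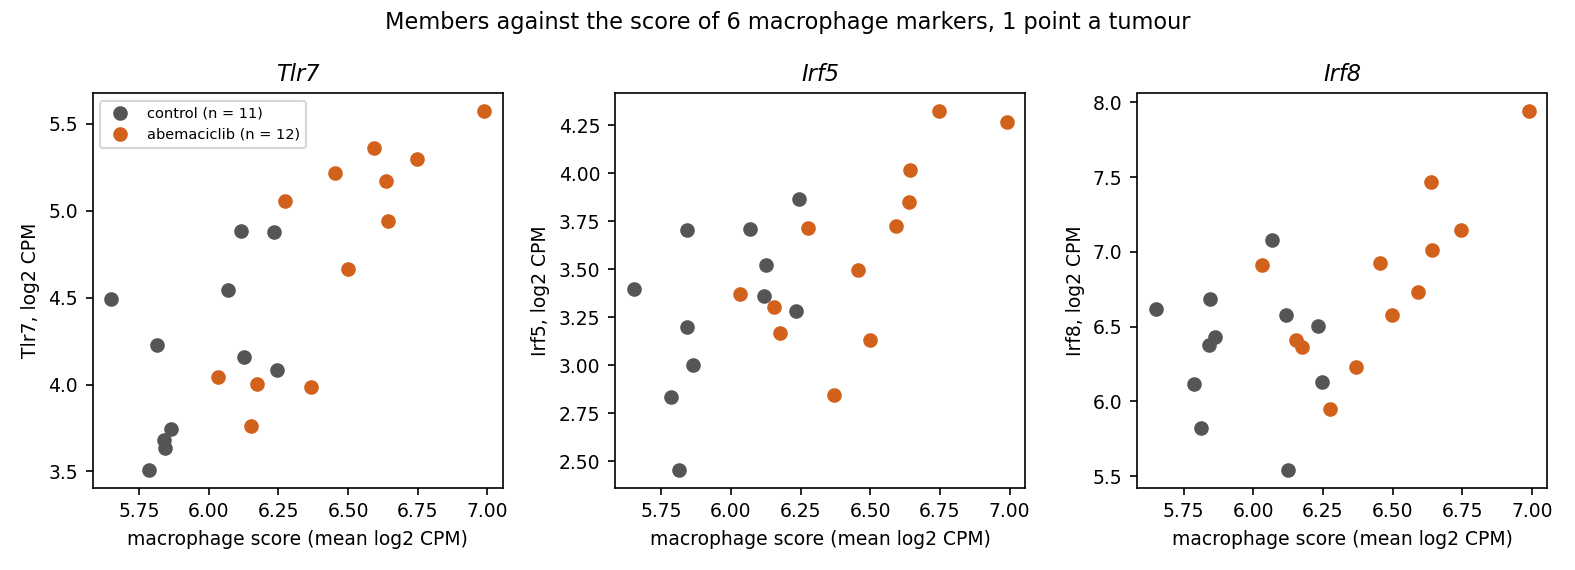
Log2 CPM of Tlr7, Irf5 and Irf8 (vertical axes) against the mean log2 CPM of 6 macrophage markers (horizontal axes), 1 point a tumour, control n = 11 and abemaciclib n = 12. Abemaciclib tumours run up to a score of 6.99 and control tumours to 6.25, and the 4 abemaciclib tumours low for Tlr7 lie at scores of 6.37 or less.

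Against the score of 11 luminal epithelial markers no member passed in abemaciclib tumours. Traf6 had the largest r (0.68, permutation test, adjusted p = 0.0956). Among members with the same sign in both groups, Irak1 was at 0.53 and Ikbkb at 0.50. On the negative side Irf8 was at -0.55, Nfkb1 at -0.54 and Traf2 at -0.52. For Nfkb1 r was -0.27 without the 2 tumours farthest from the median score. Control tumours fell into 2 sets by this score, 5 tumours (5, 7, 8, 10 and 11) at 7.63 to 8.17 with scaling factors of 1.04 to 1.26 and 6 tumours at 8.51 to 8.72 with factors of 0.860 to 1.05, so no r over all 11 is given. Within the 6, a split made after the scores were seen, Traf6 had an r of 0.97 and Irf8 of -0.87 (exact permutation tests, two-sided, p = 0.00278, adjusted over 34 members to 0.0472 each). By rank neither passed: rho was 0.94 and -0.94 (exact permutation tests, p = 0.0167, adjusted over 34 members to 0.283 each). Control tumour 6 stood apart within the 6, with a score of 8.72 against 8.51 to 8.55 for the others. It also had the highest Traf6 (118 CPM, the next at 86.0 CPM) and the lowest Irf8 (46.6 CPM), and r without it was not computed. Traf6 was at 50.7 to 64.1 CPM in the set with the lower scores and at 69.1 to 118 CPM in the other. Library scaling moved with this score, and its part in these relations was not tested.

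The 10 panel genes whose levels were most like those of Tlr7 over the 23 tumours, after the group means were taken out, were chosen by Spearman's rho and are given as a description, since all share the same libraries. They were Siglec1 (0.88), a sialic acid receptor of macrophages, Slc11a1 (0.88), a metal transporter of phagosomes, Reps2 (0.86), Pex11a (0.83), Snx13 (0.82), Adcy9 (0.81), Ncf1 (0.80), a subunit of the phagocyte oxidase, Derl2 (0.80), Ern1 (0.79) and Gnaq (0.77). None of the 10 is a member. Among the members themselves, measured the same way, the median rho over 561 pairs was 0.02, against -0.00099 over all pairs of tested genes. The highest were Tlr4 with Irak2 (0.88), Tlr4 with Irf9 (0.85), Irak2 with Irf9 (0.79), Irak1 with Traf6 (0.77) and Traf6 with Ikbkb (0.76). Nfkb2 with Relb (0.67) was the highest among the NF-kappaB subunits and Irf5 with Irf8 (0.61) among the IRFs, while Traf6 with Nfkbib was the lowest pair of all (-0.77).

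Genes upstream and downstream of the members were taken from 4 lists without the members themselves. Receptor partners and other sensors were positive in 13 of 13 tested, with 6 under an unadjusted p of 0.05 and a median of 0.38; with library totals alone 12 of 13 were positive and 2 were under 0.05. Cd36, a scavenger receptor that assists Tlr2, had a log2 fold change of 1.43 (SE 0.431), Naip2, a sensor of bacterial secretion proteins, 0.59 (SE 0.211), and Pycard, the inflammasome adaptor, 0.38 (SE 0.134). The signal relay to NF-kappaB had 11 positive and 6 negative of 17, none under 0.05, and a median of 0.07 that turned to -0.07 with library totals alone. Its smallest p-values belonged to Tradd (-0.17), Tbk1 (0.12, but negative with library totals alone) and Bcl3 (0.24).

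NF-kappaB target genes were positive in 17 of 21, with 5 under an unadjusted p of 0.05 and a median of 0.29, which were 13 of 21 and 0.16 without abemaciclib tumours 3 and 10. The neutrophil chemokine Cxcl2 had a log2 fold change of 1.03 (SE 0.264), and the adhesion molecules Vcam1 and Icam1 had 0.84 (SE 0.224) and 0.49 (SE 0.137), each above the control median in 10, 11 and 12 of 12 abemaciclib tumours in that order. IRF-responsive genes were positive in 8 of 9, with 7 under 0.05 and a median of 0.75. The T cell chemokines Cxcl9 and Cxcl10 had log2 fold changes of 3.16 and 2.66, which were 0.58 and 0.01 without abemaciclib tumours 3 and 10. With all 23 tumours no gene of the 4 lists passed the adjusted threshold by edgeR. Without those 2 tumours edgeR called 1 receptor partner or sensor and 1 NF-kappaB target, and 4 of the 9 IRF-responsive genes were under an unadjusted p of 0.05. DESeq2 called Cd36 (adjusted p = 0.0496), Cxcl2 (0.0296), Vcam1 (0.0173), Icam1 (0.0296) and 1 IRF-responsive gene. Limma-voom called 0 receptor partners or sensors, 2 IRF-responsive genes and 3 NF-kappaB targets, among them Vcam1 (0.0357) and Icam1 (0.0138).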

How the data were processed

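RNA of 23 mammary tumours was read with an Ion AmpliSeq custom panel of 1 short amplicon for each of 3826 genes, per the labels' protocols. The deposited values are raw counts per gene, with no normalization by the authors. Per the submitters' processing notes the build was mm10. No aligner or counter is stated in the sources used here. Whether counting used strand is not stated, and amplicon positions are not known here. Ikbkg, Myd88 and Nfkbib each overlap a panel neighbour in part (G6pdx, Acaa1a and Sirt2 in that order). Where an amplicon lies in a shared stretch, the pair cannot be told apart. The reads have no molecular identifiers, and PCR copies are counted. No pair of the 23 tumours agreed within sampling noise (chi-square of at least 16.7 per degree of freedom in 253 pairs).

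The test was edgeR's glmQLFTest (edgeR 4.0.16, R 4.3.3), two-sided, after TMM scaling and filterByExpr, which kept 2925 genes and left out 901. P-values were adjusted over those genes by Benjamini-Hochberg, with a threshold of 0.05. The biological coefficient of variation was 32.6%. CPM uses TMM-scaled totals, and scores are means of log2 CPM (prior count 2). Correlations used 100000 resamples and adjustment over 136 Pearson coefficients in scipy 1.17.1. The fit was tested on simulated data.

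The members and lists were chosen with earlier results of these data known. Values by tumour are given for Tlr7, for up to 3 members with the smallest p in each role and for every member at an unadjusted p under 0.05; other members are given by log2 fold change, or by counts where set aside. Up to 3 genes with the smallest p are named in each pathway list, 3 members at each end of each correlation, and 10 genes most like Tlr7. Alternatives were library totals alone, DESeq2 size factors, upper-quartile factors, no filter, a mean count of at least 50, a prior count of 0.5, DESeq2 1.42.0 (Wald), limma-voom 3.58.1 with quality weights, a replicate block, leaving out each tumour, and leaving out abemaciclib tumours 3 and 10. A further fit, chosen after seeing the data and counted among the alternatives, left out abemaciclib tumour 9 and control tumours 6 and 8. Gene positions are 1-based from GENCODE M21 on GRCm38, the assembly that mm10 names. Results for 1 member and 1 listed gene are not reported here, though the counts and medians include them.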

Additional observations from a re-analysis of the deposited data

How the results depend on the processing

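Over 1116 log2 fold changes of members under the alternatives, 1057 kept their sign and their side of the adjusted threshold, 2 gained a call and 57 changed sign; 22 of 34 members never changed sign. The calls gained were Tlr2 (0.46) by limma-voom and Tlr7 (0.76) without abemaciclib tumours 3 and 10, which are both low for Tlr7. The count of members at an adjusted p under 0.05 was thus 1 in each of those fits and 0 in the others. Over all genes, the higher and lower calls by adjusted p were 47 and 13 by DESeq2's Wald test, 57 and 70 with limma-voom, and 32 and 61 without abemaciclib tumours 3 and 10; library totals alone gave 1 lower call. Leaving out each tumour gave 0 to 21 higher and 0 to 26 lower calls, with the most without abemaciclib tumour 10. Members higher at an unadjusted p under 0.05 numbered 1 with library totals alone (3.38% of all genes), 2 with the replicate block (Tlr2 and Tlr7; 6.15%) and 3 to 6 without single tumours (6.65% to 9.02%); members lower numbered 3 with library totals alone (14.4%), 1 with upper-quartile factors (7.69%) and 0 to 1 without single tumours (4.74% to 7.03%). Library totals alone turned the members' median to -0.039 and the log2 fold changes of Irak1 to -0.061, Myd88 to -0.033, Traf6 to -0.045, Nfkb1 to -0.079 and Nfkbia to -0.10. Nfkbia was also -0.014 with upper-quartile factors, -0.018 by limma-voom and -0.015 with the replicate block. The block turned Tlr5 to 0.035 and Rela to 0.0096. Traf3 was 0.0012 by DESeq2 in its scaling and its test alike, 0.045 by limma-voom, 0.033 with the block and 0.071 without abemaciclib tumours 3 and 10. Ikbke was 0.093 by limma-voom. Without abemaciclib tumour 9 and control tumours 6 and 8 Ikbke was 0.17 and Nfkbib 0.053. Without single tumours the range was -0.12 to 0.056 for Tlr5, -0.040 to 0.12 for Myd88, -0.19 to 0.19 for Traf3, -0.23 to 0.037 for Ikbkb, -0.13 to 0.094 for Ikbke, -0.10 to 0.036 for Rela, -0.014 to 0.072 for Nfkbia, -0.065 to 0.083 for Nfkbib and -0.0055 to 0.27 for Nfkbie. Tlr4 was 0.11 without abemaciclib tumour 1, Tlr9 0.18 without abemaciclib tumour 9 and Traf5 -0.15 without abemaciclib tumour 10. The cause of these shifts was not tested. The replicate numbers share only a number: over 11 same-numbered pairs r ran from -0.43 to 0.45, with 5 over 0.1, and 2 control tumours correlated best with their own number; with the block, Irf8 had an unadjusted p of 0.0828 and Irf9 of 0.0562 by edgeR, and no gene was called at an adjusted p under 0.05 (180 higher and 174 lower unadjusted). Depth limits Irf4, Tlr1, Tlr6, Traf5 and Ikbkg most, with counts under 30 in every tumour.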
